A study of Mus musculus with 4 samples.

Results

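The regions described here are distal stretches of accessible chromatin that were called with TGF-β and not without it in control cells. They were called again in cells given siRNA against Etv4 and Etv5. They number 1084 of the 28754 accessible regions called in EpRas cells treated with control siRNA and TGF-β, or 3.77% of that list. They were selected on calls alone: a region had to be on an autosome, have its middle more than 2 kb from any annotated transcription start site (TSS), share no base with a region of the untreated control list, and overlap by at least 1 bp a region called with each of the 2 siRNA sets. The presence and absence of calls in the 4 lists are therefore what chose these regions, and are given as a description without a test.

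EpRas cells are mouse mammary gland epithelial EpH4 cells transformed with H-Ras, so every group carried the active oncogene, and the line is a single cell line in culture. Open chromatin was profiled at day 4 by FAIRE-seq, in which formaldehyde fixes proteins to DNA and the unbound, accessible fragments are recovered and sequenced. The untreated group received control siRNA (siControl) and no TGF-β, and the group called the TGF-β control here received siControl and TGF-β at 1 ng/ml. The set 1 and set 2 groups received the same dose of TGF-β and siEtv4/5, as a different siRNA set each. Each group had 1 peak list, so the spread between replicates is unknown, no difference between groups could be tested, and the knockdown itself was not measured in these libraries. The group comparison asks which of the regions called with TGF-β, and not without it, are still called with siRNA against these ETS factors.

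TGF-β drives epithelial cells into epithelial-mesenchymal transition through SMAD proteins, which bind DNA weakly and act beside other factors at enhancers. Etv4 and Etv5 are ETS family activators that are induced by Ras-ERK signalling, while AP-1, a dimer of FOS and JUN proteins, binds at many enhancers of stromal and epithelial cells and responds to both Ras and TGF-β. Distal accessible regions are mostly enhancers or insulators, and the gene that such a region regulates need not be the nearest one.

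The sequences of 12 kept regions follow. Each line gives 200 bases of the reference genome centred on the summit of the region in the TGF-β control list, from the plus strand of GRCm38 (mm10), and is named by the nearest protein-coding gene, with sequence from RefSeq. Capitals mark the words TGACTCA for AP-1, CAGGAAG or CCGGAAG for ETS, TGTGGTT for RUNX and CATTCCA for TEAD, each read on either strand. The regions near Pdcd2l, Tbl1xr1 and Spred2 are shown because an AP-1 and an ETS word lie inside the window, and those near Rmi1, Itgb3 and Tead1 because an AP-1 word stands there alone. The Pmepa1 and Jun windows hold an AP-1 and a RUNX word, the Amotl2 window holds 2 AP-1 words and the Fbn1 window a RUNX word only. The Cnnm2 and Ets2 regions are among the strongest of the kept regions, and their windows hold none of these words.
Pdcd2l, chr7:34213414-34213613: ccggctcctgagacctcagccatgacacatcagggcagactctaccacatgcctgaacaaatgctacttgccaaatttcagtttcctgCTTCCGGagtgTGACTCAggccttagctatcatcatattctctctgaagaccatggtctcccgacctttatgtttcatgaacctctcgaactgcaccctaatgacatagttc
Rmi1, chr13:58481373-58481572: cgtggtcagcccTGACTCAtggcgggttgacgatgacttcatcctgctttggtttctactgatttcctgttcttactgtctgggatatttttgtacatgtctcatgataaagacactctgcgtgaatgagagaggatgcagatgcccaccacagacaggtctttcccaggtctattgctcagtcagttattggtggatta
Tbl1xr1, chr3:21952987-21953186: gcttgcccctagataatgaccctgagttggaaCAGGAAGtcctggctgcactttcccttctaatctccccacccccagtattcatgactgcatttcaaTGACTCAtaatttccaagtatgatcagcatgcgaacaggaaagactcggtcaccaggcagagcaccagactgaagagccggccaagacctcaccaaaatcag
Pmepa1, chr2:173321319-173321518: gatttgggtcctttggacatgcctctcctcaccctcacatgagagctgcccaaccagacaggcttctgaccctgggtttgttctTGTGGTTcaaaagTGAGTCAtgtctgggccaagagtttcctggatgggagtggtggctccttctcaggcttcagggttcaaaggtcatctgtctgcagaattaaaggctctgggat
Itgb3, chr11:104640999-104641198: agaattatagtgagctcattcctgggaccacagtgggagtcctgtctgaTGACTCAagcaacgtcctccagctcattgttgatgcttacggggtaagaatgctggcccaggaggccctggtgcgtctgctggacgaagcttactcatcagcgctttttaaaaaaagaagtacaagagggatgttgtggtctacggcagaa
Jun, chr4:95105419-95105618: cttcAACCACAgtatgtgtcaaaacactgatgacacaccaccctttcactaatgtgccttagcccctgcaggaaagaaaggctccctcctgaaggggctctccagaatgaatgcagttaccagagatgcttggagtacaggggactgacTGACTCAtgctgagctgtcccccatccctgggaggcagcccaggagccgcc
Spred2, chr11:19835227-19835426: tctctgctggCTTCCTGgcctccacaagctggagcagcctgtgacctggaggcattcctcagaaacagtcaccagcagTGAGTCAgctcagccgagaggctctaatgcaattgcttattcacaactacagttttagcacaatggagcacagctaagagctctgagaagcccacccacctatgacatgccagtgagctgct
Tead1, chr7:112645842-112646041: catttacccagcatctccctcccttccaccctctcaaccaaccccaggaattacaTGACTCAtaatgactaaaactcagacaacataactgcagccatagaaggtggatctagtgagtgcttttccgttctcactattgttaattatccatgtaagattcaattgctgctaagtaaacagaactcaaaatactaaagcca
Amotl2, chr9:102673413-102673612: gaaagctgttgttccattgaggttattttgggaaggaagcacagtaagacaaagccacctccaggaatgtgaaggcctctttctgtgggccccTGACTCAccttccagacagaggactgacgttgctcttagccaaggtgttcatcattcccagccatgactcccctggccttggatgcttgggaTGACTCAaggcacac
Fbn1, chr2:125540728-125540927: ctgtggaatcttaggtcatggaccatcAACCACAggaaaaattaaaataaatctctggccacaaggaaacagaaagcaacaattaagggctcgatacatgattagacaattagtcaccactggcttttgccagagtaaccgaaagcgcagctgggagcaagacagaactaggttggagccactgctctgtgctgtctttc
Cnnm2, chr19:46792568-46792767: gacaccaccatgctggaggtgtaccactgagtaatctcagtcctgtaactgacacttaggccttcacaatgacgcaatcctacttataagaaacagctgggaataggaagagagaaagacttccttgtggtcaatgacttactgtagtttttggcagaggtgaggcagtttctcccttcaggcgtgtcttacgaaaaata
Ets2, chr16:95728941-95729140: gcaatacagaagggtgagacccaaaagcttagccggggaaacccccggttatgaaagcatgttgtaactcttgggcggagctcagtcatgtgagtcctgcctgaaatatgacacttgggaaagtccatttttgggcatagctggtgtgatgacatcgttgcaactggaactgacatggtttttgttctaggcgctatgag

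In the Pdcd2l window the ETS and AP-1 words lie a few bases apart at the summit, whereas in the Tbl1xr1 and Spred2 windows the AP-1 word is near the summit and the ETS word toward the edge. The other words searched, all on both strands, are spelled out with their shares after the levels. A match describes the letters of a sequence and is not evidence of binding.

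Of 28509 autosomal regions in the TGF-β control list, 18733 lay more than 2 kb from a TSS. Among these distal regions 8379, or 44.7%, overlapped no untreated region. Of all distal regions 61.8% overlapped a set 1 region, 40.2% a set 2 region and 35.4% both. Among the gained regions, 3432 (41.0%) were called in the set 1 list, 1486 (17.7%) in the set 2 list and 1084 in both, or 12.9% (95% Wilson interval 12.2 to 13.7). Intervals on shares cover counting error only. A further 2348 gained regions were called with set 1 only, 402 with set 2 only and 4545 with neither. Of the 10354 distal regions that were shared with the untreated list, 5539 (53.5%) were called with both sets. The kept share of the gained regions was thus below the 35.4% background of all distal regions, and these calls are what the rule itself used.

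The lists were not of equal length. The untreated list held 22247 regions, the TGF-β control 28754, set 1 22516 and set 2 14925, while the estimated depth in the same order was 15.3, 16.3, 17.3 and 20.7 M reads. The shortest list thus came from the deepest library, and the part of depth in the calls was not tested. Which regions were kept depended on list length. With every list shortened to its 14925 strongest regions, 1074 regions met the rule and 362 were shared with the 1084, or 33.4% of the former 1084 and 33.7% of the 1074. Markers of the cell type were partly visible in the lists. A region lay within 2 kb of a TSS of Krt8 in all 4 lists and of Krt18 in all but set 2, Epcam had one in the untreated list only, Cdh1 in the untreated and set 2 lists and Cldn7 in the TGF-β control list only. Of the markers of other cells, Ptprc, Myod1 and Neurod1 had none in any list and Pecam1 had one in the TGF-β control list, with a fold enrichment of 6.75.

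Stronger gained regions were kept more often. Strength in the TGF-β control is given as the number of fragments at the summit, which was solved from the deposited fold enrichment and p-value. Among gained regions with at most 14 summit fragments 2.39% were kept (14 of 586), with 15 to 19 fragments 7.35% (265 of 3603), and with 20 to 24 fragments 12.8% (329 of 2574). The share was 25.3% (284 of 1124) at 25 to 29 fragments, 35.8% (126 of 352) at 30 to 34, and 47.1% (66 of 140) at 35 or more. The kept share was higher at every step. Regions shared with the untreated list were called with both sets more often at each strength, from 15.2% at most 14 fragments to 89.0% at 35 or more. These shares are the calls the rule used and are given as a description.

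**Figure D1:**
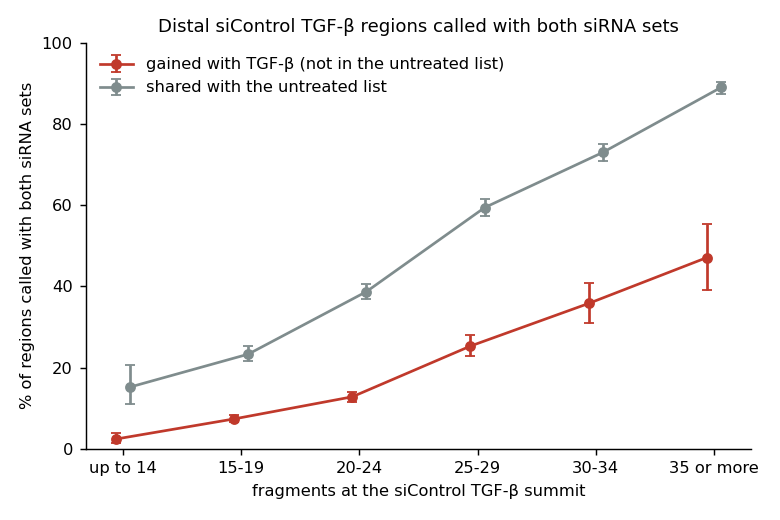
Share of distal TGF-β control regions called with both siRNA sets (y axis, %) by the number of fragments at the TGF-β control summit (x axis), for gained regions (red) and regions shared with the untreated list (grey), with 95% Wilson intervals. The red points climb from 2.39% to 47.1% and stay below the grey points, which climb from 15.2% to 89.0%.

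The kept regions had a median fold enrichment, the summit signal over local background, of 8.18 in the TGF-β control, of 7.48 for set 1 and of 6.55 for set 2. The values ranged from 3.88 to 14.8, from 4.31 to 14.5 and from 3.53 to 16.0 in the same order, so the 3 distributions overlapped over most of their width. In summit fragments the medians were 24, 21 and 20, or 1.48, 1.22 and 0.968 per M estimated reads. The regions were narrow, with median widths of 204, 189 and 157 bp. For comparison, gained regions called with neither set had a median fold enrichment of 7.42 and 18 summit fragments in the TGF-β control, and regions called in all 4 lists had medians of 8.31 in the untreated list, 9.46 in the TGF-β control, 8.33 for set 1 and 7.14 for set 2.

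Although they were called with both sets, most of the kept regions had lower values there. The median log2 ratio of fold enrichment against the TGF-β control was -0.15 with set 1 (quartiles -0.34 and 0.06), and 745 of 1084 regions (68.7%) were lower. With set 2 it was -0.31 (quartiles -0.51 and -0.12), and 929 regions (85.7%) were lower. On the scale of fragments per M estimated reads the medians were -0.22 and -0.58. Regions called in all 4 lists had median ratios of -0.17 and -0.40 on the fold enrichment scale. At 20 to 29 summit fragments the kept regions had -0.19 and -0.35 and the regions called in all 4 lists -0.11 and -0.33. Single kept regions in this strength range had a standard deviation of 0.26 with either set, and the difference between the classes was not tested. Calls in all 3 TGF-β lists were required by the rule, which bounds the values from below in each of them.

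**Figure D2:**
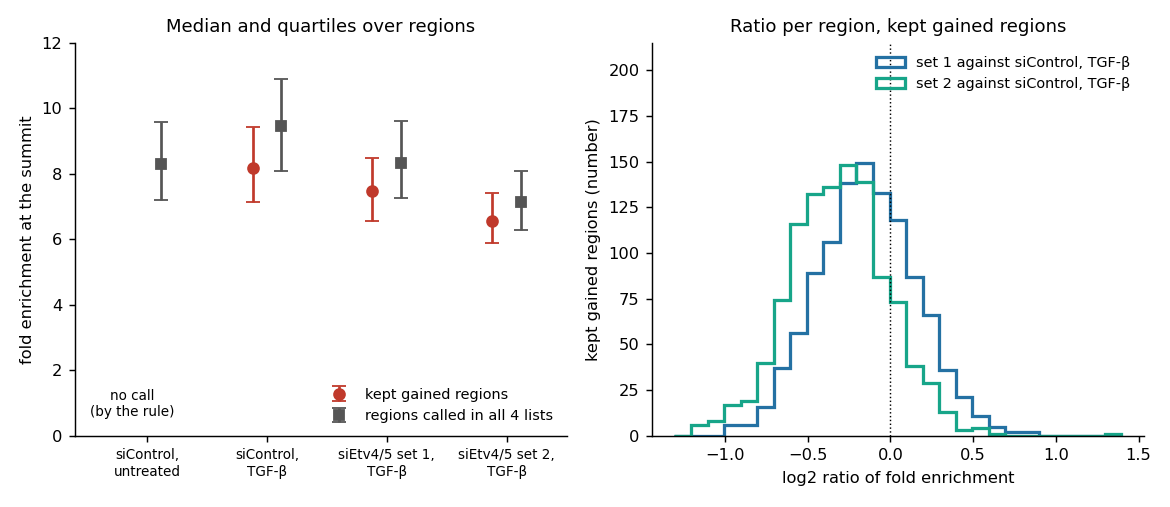
Left, median and quartiles over regions of the fold enrichment at the summit (y axis) in the 4 lists (x axis) for the kept gained regions (red circles) and regions called in all 4 lists (grey squares); the kept regions have no untreated value by the rule. Right, number of kept regions (y axis) by log2 ratio of fold enrichment (x axis) for each siRNA set against the TGF-β control; the medians are -0.15 for set 1 and -0.31 for set 2.

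By fold enrichment, 692 kept regions (63.8%) were highest in the TGF-β control, 304 (28.0%) with set 1 and 88 (8.12%) with set 2, and set 2 was the lowest in 740 (68.3%). Large differences depended on the scale. On the fold enrichment scale the value was at most 0.5 times that of siControl in 2 regions with set 1 and 14 with set 2, and at least 2 times in 0 regions with set 1 and 1 with set 2. In fragments per M estimated reads it was at most 0.5 times that of the TGF-β control in 9 regions with set 1 and 130 with set 2. The extremes are named here after their values were seen. The single region above 2 times lay near Mdga2 on chr12:67059763-67059912, in a window of which 60.6% was repeat sequence, and measured 6.38 in the TGF-β control, 5.29 with set 1 and 16.0 with set 2, where it held 83 fragments. The region near Mansc1, chr6:134615341-134615549, measured 14.8, 7.39 and 11.2 and had the lowest ratio for set 1. The region near Ttyh2, chr11:114694473-114694705, measured 14.6, 8.80 and 6.60. Across the 1084 regions, log2 fold enrichment in the TGF-β control had a Pearson correlation of 0.468 with set 1 and 0.429 with set 2. The correlation of the 2 sets with each other was 0.442, and all lists were truncated from below by the calling threshold.

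The position of the summit inside the overlap was not used by the rule. The siControl and set 1 summits lay a median of 31 bp apart, siControl and set 2 summits 29 bp and the summits of the 2 sets 31 bp. All 3 summits fell within 50 bp in 557 kept regions (51.4%, interval 48.4 to 54.3), beside 49.6% (48.3 to 50.9) of the regions called in all 4 lists. The region near Cnnm2 had its 3 summits within 9 bp and the region near Ezh1 within 12 bp, against 103 bp near Fbn1 and 111 bp near Spred2 (chr11:19843115-19843439).

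An absent call does not give the untreated level, but it limits it. The limit was taken as the smallest number of fragments that reached a -log10 p of 10.3, the 5th percentile of untreated distal regions, at the same local background. Scaled to the untreated depth, the kept regions had a median of 22.5 fragments in the TGF-β control against a limit of 15, a median ratio of 1.38. The ratio exceeded 1 in 1043 regions, was at least 1.5 in 377 (34.8%) and at least 2 in 49 (4.52%), with a maximum of 2.54. Among gained regions called with neither set, 8.10% were at 1.5 or more. For most kept regions an untreated level just under the limit would thus lie within 1.5 times of the TGF-β level. This share depended strongly on the p-value that set the limit: with the lowest untreated p it was 75.1% and with the median untreated p 3.87%.

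An untreated region was often not far away. The median gap to the nearest untreated region was 16.0 kb, 401 kept regions (37.0%) had one within 10 kb and 19 within 200 bp. The regions nearest to the threshold lay near Rrm1 (chr7:102417717-102417885, 6 bp from an untreated region), Cdkn2aipnl (20 bp) and Pcnx (25 bp). Just outside were regions near St6gal1, Polr3k and Asb2, called in all 4 lists, which overlapped an untreated region by 25, 32 and 34 bp. At the TSS distance, the regions just inside lay 2019 bp (near Dnah6), 2053 bp (Zfp281) and 2060 bp (Tbkbp1) from a TSS and those just outside 1952 bp (Olfr65), 1949 bp (Fam167a) and 1929 bp (Zg16). The weakest q-values among the kept regions were those near A1bg, Meioc and Trabd2b (chr4:114336806-114336938), with -log10 q of 5.61, 5.64 and 6.03 against the deposited threshold of 4.

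To place the pattern, the distal regions of all 4 lists were merged into 23844 regions. Of these 5530 (23.2%) were present in all lists. Being absent from the untreated list alone was the pattern of 1075 (4.51%), while 2596 (10.9%) lacked only set 2, 505 (2.12%) only set 1 and 174 (0.730%) only the TGF-β control. These 4 counts followed the order of list length, from the shortest list to the longest. The 1075 regions have the pattern that the rule selects, and the part of list length in the counts was not tested.

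Annotation was by the base at the summit, so a region placed in an intron can extend into an exon. The kept regions lay in introns in 576 cases (53.1%), between genes in 478 (44.1%) and in exons in 30 (2.77%). Their median distance to the nearest TSS of any gene was 16.6 kb, and 163 (15.0%) lay more than 50 kb away. For all distal regions the values were 51.4% in introns, 45.5% between genes and a median of 15.6 kb. The kept share of the gained regions ranged from 9.73% on chromosome 13 to 17.7% on chromosome 14 (48 of 271). Most kept regions had no other kept region nearby. Within 12.5 kb of each other were 67 of them (6.18%) in 33 clusters, 32 of which were pairs. The single group of 3 spanned 16.7 kb near Btbd3 (chr2:137716043-137732736), which encodes a BTB domain protein. For comparison, a kept region lay within 12.5 kb of 3.41% of gained regions called with neither set and 3.88% of regions called in all 4 lists. A region called in all 4 lists lay within 12.5 kb of 198 kept regions (18.3%), at a median distance of 62.0 kb, beside 16.0% and 89.8 kb for gained regions called with neither set.

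The base composition was close to that of other accessible regions. The median GC content of the 500 bp around the middle of a kept region was 46.2%, beside 46.2% for all distal regions and 41.6% in a grid of 109605 distal genome windows of the same length taken every 20 kb. The median repeat share was 10.0%, against 24% in the grid and 12.6% in gained regions called with neither set.

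Sequence was not used by the rule, and motif words were counted in the same 500 bp. The AP-1 word TGACTCA occurred in 607 of 1084 kept regions, 56.0% (53.0 to 58.9), against 7.89% of the grid windows, 7.10 times as often. It was less frequent in gained regions called with neither set, at 47.0% (45.5 to 48.4), and slightly more frequent in regions called in all 4 lists, at 59.2% (57.9 to 60.5). In gained regions called with set 1 only the share was 54.5% (52.5 to 56.5), close to that of the kept regions. With set 2 only it was 48.0% (43.2 to 52.9), so the higher share was not particular to regions called with both sets. Among all distal regions the word occurred in 51.2%. The gap between kept regions and those called with neither set was also seen within strength bins. The intervals were separate in some bins and overlapped in others. At 20 to 24 fragments 56.8% (51.4 to 62.1) of kept regions and 47.5% (44.8 to 50.3) of those called with neither set held the word, and at 25 to 29 fragments 59.5% (53.7 to 65.1) and 47.6% (42.7 to 52.5). At 15 to 19 fragments the shares were 52.1% (46.1 to 58.0) and 46.2% (44.1 to 48.2), and at 30 or more 54.2% (47.1 to 61.1) and 46.0% (36.6 to 55.7). With a longer AP-1 word the shares at 20 to 29 fragments were 20.9% (17.8 to 24.3) and 19.6% (17.8 to 21.6). Seen from the other side, 607 of the 4215 gained regions with the word were kept and 477 of the 4164 without it (11.5%, 10.5 to 12.5), and the intervals of these shares did not overlap. Of the kept regions 471 held 1 AP-1 word, 128 held 2 and 8 held 3 or more, among them a region near Eya1 with 4.

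The ETS words, which Etv4 and Etv5 can bind, were present in 296 kept regions, 27.3% (24.7 to 30.0). This lay close to the 25.1% (23.8 to 26.3) of gained regions called with neither set and to the 27.2% of all distal regions, and below the 31.0% (29.8 to 32.2) of regions called in all 4 lists, with intervals that just overlapped. The grid held them in 16.1%. CAGGAAG accounted for 270 of the kept regions and CCGGAAG for 36. The ratios were also compared between kept regions with and without an ETS word. With set 1 their median log2 ratio was -0.19 (quartiles -0.38 and 0.03) beside -0.12 (-0.33 and 0.07) without the word, and with set 2 -0.33 (-0.53 and -0.15) beside -0.30 (-0.50 and -0.11). Where the word lay within 100 bp of the summit, in 162 regions, the medians were -0.20 and -0.31. With set 1, 134 of 180 kept regions with AP-1 and ETS words (74.4%) had values below the TGF-β control, beside 269 of 427 (63.0%) with an AP-1 word and no ETS word. Among kept regions without an AP-1 word the order was reversed, at 79 of 116 (68.1%) with an ETS word and 263 of 361 (72.9%) without. With set 2 the shares were 89.4% and 84.8% where an AP-1 word was present, and 83.6% and 85.6% where it was not. These differences were not tested. An AP-1 and an ETS word stood together in 180 kept regions (16.6%, 14.5 to 18.9), where 15.3% would hold both if they occurred independently. Both stood in 11.1% (10.2 to 12.1) of gained regions called with neither set, with 11.8% if independent. In regions called in all 4 lists the share was 18.2% (17.2 to 19.3), with 18.4% if independent. None of the AP-1, ETS and RUNX words was present in 287 kept regions (26.5%).

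The RUNX word TGTGGTT, bound by the RUNX factors that act with SMADs in several tissues, occurred in 213 kept regions, 19.6% (17.4 to 22.1), beside 16.9% (15.8 to 18.0) of gained regions called with neither set, 18.5% of regions called in all 4 lists, 17.4% of all distal regions and 11.4% of the grid. The TEAD word CATTCCA, through which YAP and TAZ act, was held by 14.7% (12.7 to 16.9) of kept regions, 12.9% of those called with neither set, 13.5% of those in all 4 lists and 7.91% of the grid. The short SMAD word CAGACA was present in 46.4% (43.5 to 49.4), with 42.0% (40.6 to 43.4) for neither set, 44.8% for all 4 lists and 36.5% for the grid. The SMAD palindrome GTCTAGAC was rare, in 10 kept regions (0.923%, 0.502 to 1.69) and 0.379% of the grid. It occurred in 0.638% for neither set, 0.506% for all 4 lists and 0.518% of all distal regions, all inside the interval of the kept regions. The C/EBP word TTGCNNAA was as frequent in kept regions (22.6%) as in the grid (22.0%).

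The E-box and the GC box were less frequent in kept regions, and in gained regions called with neither set, than in those called in all 4 lists. The E-box CACCTG, which ZEB and SNAI repressors bind, occurred in 25.7% (23.2 to 28.4) of kept regions, 31.1% (29.8 to 32.3) of regions called in all 4 lists and 26.5% of the grid. The GC box GGGCGG of SP and KLF factors was present in 8.30% (6.80 to 10.1), beside 12.1% (11.2 to 13.0) in all 4 lists and 4.13% of the grid. Gained regions called with neither set held the E-box in 27.6% (26.3 to 28.9) and the GC box in 8.23% (7.46 to 9.06). The site of the insulator protein CTCF, as a degenerate word, was found in 4.70% (3.60 to 6.13) of kept regions, 6.42% (5.75 to 7.17) of gained regions called with neither set and 1.10% of the grid. The GRHL word AACCNGTT of the epithelial Grainyhead-like factors occurred in 30 kept regions, 2.77% (1.95 to 3.92), beside 4.11% (3.57 to 4.73) for neither set and 3.66% of the grid. The FOX word TGTTTAC (6.92%, grid 7.30%), the TCF/LEF word ATCAAAG (7.66%, grid 10.1%), the CArG box of SRF (2.68%, grid 2.97%) and the NF1 palindrome (1 kept region, 0.0923%, grid 0.0228%) completed the search.

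**Figure D3:**
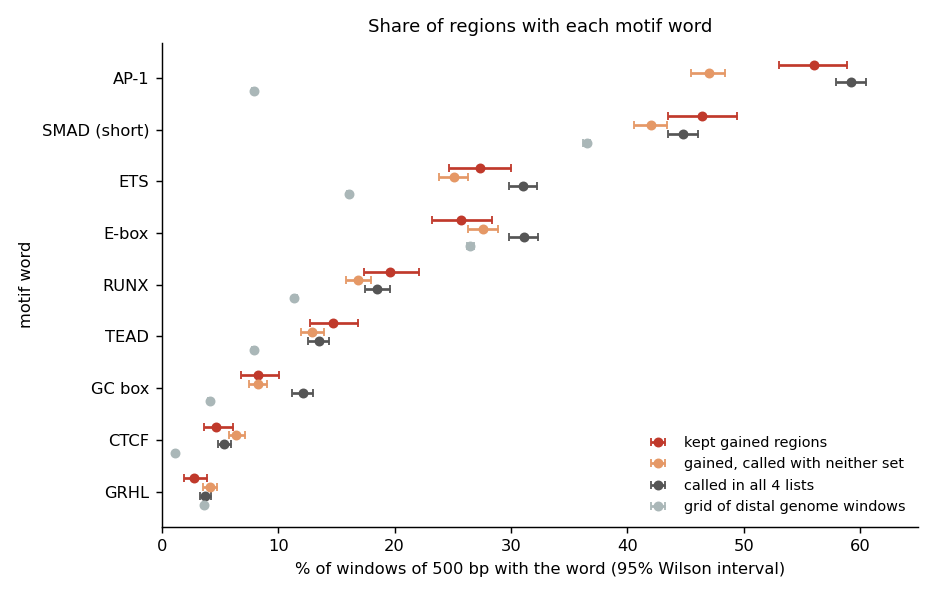
Share of 500 bp windows with each motif word (x axis, %, with 95% Wilson intervals) for kept gained regions, gained regions called with neither siRNA set, regions called in all 4 lists and a grid of distal genome windows (colours), by motif word (y axis). The AP-1 word stands furthest from the grid, at 56.0% of kept regions against 7.89%, while the ETS word is at 27.3% against 16.1%.

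The AP-1 word was concentrated at the summit. In 442 kept regions (40.8%) it lay within 50 bp of the TGF-β control summit, and the word nearest to the summit was a median of 31 bp away where there was one within 500 bp. The AP-1 word was concentrated at the summit in other classes too. It lay within 50 bp in 43.3% of regions called in all 4 lists and 35.6% of gained regions called with neither set. The median distances there were 30 and 31 bp. For ETS, RUNX and TEAD words in kept regions the medians were 152, 174 and 137 bp. Within 50 bp of the summit 97 kept regions (8.95%) held an ETS word, 83 (7.66%) a RUNX word and 66 (6.09%) a TEAD word. The AP-1 words near the summits of Pdcd2l, Pmepa1 and Tbl1xr1 in the sequences above are of this kind.

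**Figure D4:**
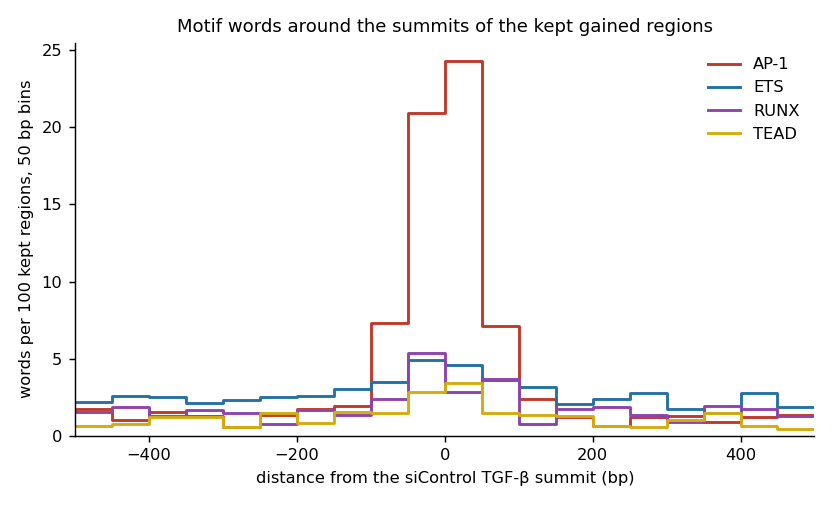
Number of motif words per 100 kept gained regions in bins of 50 bp (y axis) by distance from the TGF-β control summit in bp (x axis), for AP-1, ETS, RUNX and TEAD words. The AP-1 line peaks at the summit, where 442 of 1084 regions hold the word within 50 bp, and the ETS, RUNX and TEAD lines show low, broad peaks.

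The 12 regions with the highest smallest value over the 3 TGF-β lists all lay on different chromosomes. The strongest lay in an intron of Ezh1, a histone methyltransferase of Polycomb repressive complex 2, at chr11:101211992-101212145, and measured 12 in the TGF-β control, 12.5 with set 1 and 12 with set 2. It was thus at nearly the same level in all 3 lists on this scale. The region 16.8 kb upstream of Pdcd2l, chr7:34213391-34213605, measured 13.9, 10.7 and 11.5 and was highest in siControl. The intronic region of Cnnm2, a gene of magnesium homeostasis, at chr19:46792537-46792784 measured 12.6, 9.50 and 9.43 with 42, 29 and 34 summit fragments. It stood at 2.32 times the untreated limit, beside a median of 1.38 over all kept regions. The region near Rmi1, which encodes a partner of the BLM helicase, at chr13:58481344-58481565 measured 10.4, 9.30 and 9.66. The region near Tbl1xr1, a subunit of the NCoR corepressor complex, at chr3:21952983-21953226 measured 8.98, 9.54 and 8.97, with set 1 the highest and the other lists level on this scale. In fragments per M estimated reads it measured 1.97, 2.03 and 1.74, with set 2 the lowest. The region near Gapvd1, an endocytic regulator of RAB5, at chr2:34762964-34763152 measured 10.7, 9.83 and 9.32. The remaining regions of this group, near 1700018B08Rik, Nmrk2, Ets2, Gsap, Trabd2b and Akap6, had fold enrichments between 8.89 and 11.7 in every list.

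**Figure D5:**
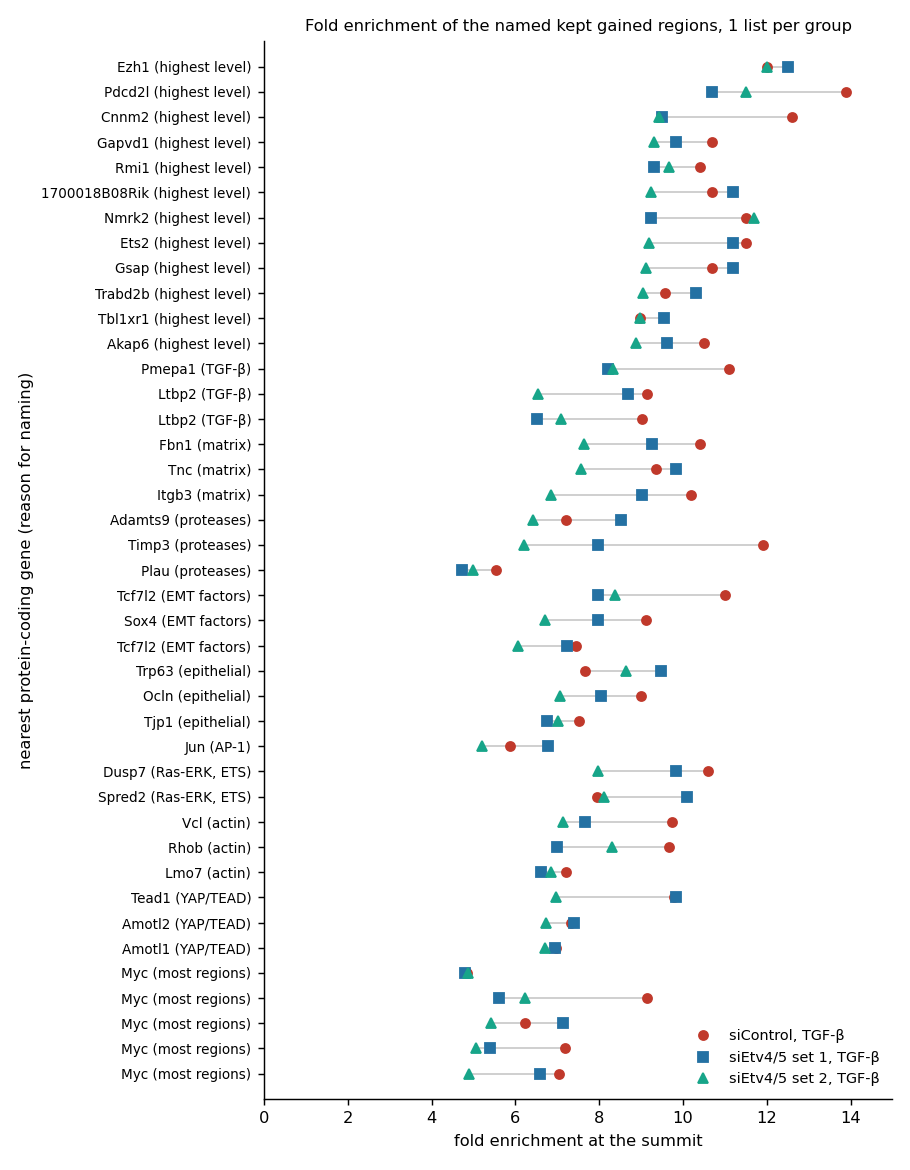
Fold enrichment at the summit (x axis) of the named kept gained regions in the TGF-β control (red circles), set 1 (blue squares) and set 2 (green triangles), each a single list, by nearest protein-coding gene with the reason for naming (y axis). Red circles lie to the right of the green triangles in most rows, as near Timp3 (11.9 against 6.21), while near Ezh1 the 3 values lie together and near Trp63 both siRNA sets lie to the right, although in fragments per M estimated reads set 2 was below the TGF-β control there (1.21 against 1.41).

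Genes of 9 lists were looked up as the nearest protein-coding TSS. Together 70 kept regions belonged to 54 of these genes, with median fold enrichments of 7.63, 6.97 and 6.12 in the TGF-β control, set 1 and set 2. Of the 70, 51 had a lower value for set 1 than for the TGF-β control, and 61 for set 2. Their median log2 ratios of -0.15 and -0.31 equalled those of all kept regions. The ratio to the untreated limit varied among the 70, in examples chosen after their values were seen. It was 2.35 near Tgfb2, but 1.08 near Amotl2, 1.04 near Plau and 0.939 near Prrx1. At Ccn2 (chr10:24554228-24554439) it was 1.00, and at Cldn4 (chr5:134963640-134963796) 0.986. At such ratios an untreated level just under the limit would be about equal to the TGF-β level. An AP-1 word was present in 42 of the 70, an ETS word in 16 and a RUNX word in 15. By list, the AP-1 word was held by 6 of 11 regions of TGF-β signalling genes, 10 of 15 of matrix genes, 1 of 4 of proteases, 3 of 9 of EMT factors, 4 of 7 of epithelial genes, 5 of 7 of actin genes and 2 of 4 of YAP and TEAD genes. No list held more than 1.38% of the kept regions.

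Genes of TGF-β signalling and its feedback had 11 kept regions, 1.01% (0.568 to 1.81) beside 0.897% of all distal regions, and 5 of the 11 were regions nearest to Myc, 152 to 531 kb from its TSS. The ligand gene Tgfb2 had a region 251 kb from its TSS at chr1:186454781-186455006, named here after its values were seen, which measured 12.3 in the TGF-β control, 9.31 with set 1 and 6.15 with set 2. The gene of the type II receptor, Tgfbr2, had one 209 kb upstream, at chr9:116384265-116384489, that measured 9.55, 6.23 and 5.56, also named after its values were seen. Both were highest in the TGF-β control and lowest with set 2. Pmepa1, a TGF-β-induced membrane protein that limits SMAD signalling, had an intergenic region 44.9 kb upstream at chr2:173321310-173321525 that measured 11.1, 8.22 and 8.34. Its 500 bp held 5 copies of the short SMAD word beside the AP-1 and RUNX words shown above. Ltbp2, a matrix protein of the latent TGF-β binding family, had 2 intronic regions. That at chr12:84835755-84835946 measured 9.14, 8.69 and 6.55, and that at chr12:84846552-84847049 measured 9.02, 6.52 and 7.09.

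Myc, a proto-oncogene of this list that TGF-β represses in normal epithelium, was the nearest gene of 5 kept regions, more than any other gene. They were spread over 1029 kb of chromosome 15 and were part of 36 distal regions given to Myc, of which 12 were gained and 17 called in all 4 lists. Fold enrichments were modest, from 4.84 to 9.15 in the TGF-β control, 4.80 to 7.14 with set 1 and 4.86 to 6.24 with set 2. Fragment numbers were high for such values, 24 to 48, 27 to 41 and 21 to 50, and the local background was raised as well. Its median over the 5 regions was 3.64, 3.99 and 4.92 fragments in the 3 lists, beside 1.88, 1.93 and 2.05 over all kept regions. The most upstream, chr15:61454492-61454624, measured 4.84, 4.80 and 4.86, level on this scale but 1.78, 2.37 and 2.42 in fragments per M estimated reads, and lay 0.135 kb from an untreated region. The regions at chr15:62139413-62139572 and chr15:62286680-62286898 also lay close to one, at 0.111 and 0.425 kb.

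Matrix and adhesion genes had 15 kept regions at 13 genes, 1.38% (0.840 to 2.27) beside 1.05% of all distal regions, with a median log2 ratio of -0.17 for set 1 and -0.39 for set 2. Fbn1, which encodes fibrillin-1, had a region 32.8 kb upstream at chr2:125540668-125540920 that measured 10.4, 9.27 and 7.63. Tnc, the gene of tenascin-C, had one 173 kb upstream at chr4:64219879-64220101 that measured 9.35, 9.84 and 7.57. The region of Itgb3, the integrin β3 chain, at chr11:104640983-104641229 had its summit in an intron and measured 10.2, 9.03 and 6.85. In all 3 the set 2 value was the lowest. Ccn2, which encodes connective tissue growth factor and is a target of both TGF-β and YAP, was the nearest gene of 3 kept regions out of 7 distal ones. The region at chr10:24554228-24554439 measured 6.20, 7.02 and 6.36, that at chr10:24581072-24581373 measured 9.30, 8.87 and 5.89, and that at chr10:24589375-24589576 measured 5.97, 5.05 and 5.53, all chosen after their values were seen. Each of the 3 Ccn2 regions held at least 1 AP-1 word.

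Proteases and their inhibitors had 4 kept regions, 0.369% (0.144 to 0.945) beside 0.384% of all distal regions. Timp3, a matrix-bound metalloprotease inhibitor, had an intronic region at chr10:86310648-86310857 that measured 11.9 in the TGF-β control, 7.97 with set 1 and 6.21 with set 2. The value with set 2 was thus below the median of 6.55 of the kept regions with set 2. That of the TGF-β control was above the upper quartile of 9.44 of the kept regions in that list. Plau, the urokinase gene, had one 5.35 kb upstream at chr14:20831209-20831417 that measured 5.55, 4.73 and 5.00, and Adamts9 one 324 kb away that measured 7.22, 8.51 and 6.42.

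EMT transcription factor genes had 9 kept regions at 6 genes, 0.830% (0.437 to 1.57) beside 0.699% of all distal regions. Tcf7l2, an effector of Wnt signalling, had regions at chr19:56037683-56037959, which measured 11, 7.97 and 8.38, and at chr19:55768995-55769201, which measured 7.44, 7.24 and 6.06. Sox4, which is required in TGF-β-induced transition in mammary cells, had one at chr13:28823533-28823786 that measured 9.11, 7.97 and 6.70. For all 9 regions of the list the value with set 2 was below that of the TGF-β control, as for 85.7% of all kept regions. Runx1 and Runx2, along with Prrx1 and Klf5, also had regions in the list, and Snai1, Snai2, Zeb1, Zeb2, Twist1 and Twist2 were nearest to none.

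Genes of epithelial junctions and identity had 7 kept regions, 0.646% (0.313 to 1.33) beside 0.304% of all distal regions. Trp63, which marks basal epithelium, had an intergenic region at chr16:25615777-25615924 that measured 7.67, 9.47 and 8.63 and so was higher with both siRNA sets on the fold enrichment scale. In fragments per M estimated reads the Trp63 region measured 1.41, 1.56 and 1.21, so that set 2 was below the TGF-β control. The tight junction gene Ocln had one in an intron at chr13:100543518-100543669 that measured 8.99, 8.04 and 7.06. Tjp1, also of tight junctions, had one at chr7:65345458-65345590 that measured 7.51, 6.76 and 7.02, nearly level in the 3 lists on this scale. In fragments per M estimated reads the Tjp1 region measured 1.04, 0.984 and 0.823. The remaining 4 lay near Grhl2, Elf3 and, in 2 cases, Cldn4. The interval of the list narrowly missed the share of all distal regions, but with genes given by a TSS within 50 kb it held it (0.554%, 0.254 to 1.20, beside 0.384%).

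Ras-ERK feedback and ETS genes had 12 kept regions at 8 genes, 1.11% (0.634 to 1.92) beside 0.662% of all distal regions, and 10 of the 12 held an AP-1 word, beside 56.0% of all kept regions. Ets2, an ETS factor activated by ERK, had a region 27.0 kb away at chr16:95728943-95729152 that measured 11.5, 11.2 and 9.19. Dusp7, an ERK phosphatase, had one at chr9:106345191-106345394 that measured 10.6, 9.83 and 7.98. Spred2, an inhibitor of Ras-ERK signalling, was nearest to 3, of which that at chr11:19843115-19843439 measured 7.95, 10.1 and 8.11. Of the others, that at chr11:19835200-19835462, whose sequence is shown above, measured 11, 7.91 and 8.23, and that at chr11:19666831-19667096 measured 12, 7.48 and 5.88, both chosen after their values were seen. The Spred2 regions thus differed in which list was highest. Etv4, a target of the siRNA sets, had an intronic region at chr11:101776940-101777126, named after its values were seen, that measured 9.29, 7.72 and 5.91 and held 2 ETS words and 1 AP-1 word. The region was called in both knockdown lists at lower values. Among AP-1 genes only Jun had a kept region, at chr4:95105394-95105669, which measured 5.88, 6.79 and 5.21 and lay 0.365 kb from an untreated region.

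Actin cytoskeleton genes had 7 kept regions, 0.646% (0.313 to 1.33) beside 0.544% of all distal regions. With set 1 all 7 were below the TGF-β control, beside 68.7% of all kept regions. With set 2 all 7 were also below it, beside 85.7% of all kept regions. Vcl, the gene of the adhesion protein vinculin, had a region that measured 9.73, 7.67 and 7.13. Rhob, a small GTPase gene, had one that measured 9.66, 6.99 and 8.30, and Lmo7 one that measured 7.21, 6.62 and 6.85. The YAP and TEAD list had 4, 0.369% (0.144 to 0.945) beside 0.230%. Tead1, a DNA-binding partner of YAP, had one at chr7:112645819-112646103 that measured 9.79, 9.83 and 6.97. Amotl2 and Amotl1, which hold YAP out of the nucleus, had regions that measured 7.33, 7.39 and 6.72 and 6.98, 6.95 and 6.71. The Amotl regions were nearly level across the lists on the fold enrichment scale, whereas the Tead1 value was lower with set 2. In fragments per M estimated reads, Amotl2 measured 0.922, 0.926 and 0.726 and Amotl1 1.54, 1.33 and 1.21, with set 2 the lowest in both.

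The kept regions were given to 957 protein-coding genes in all. Apart from Myc, 13 genes were nearest to 3 kept regions each, among them Nfib, a Nuclear factor I gene, Btbd3, Mical2, Plcb4, Slc38a4, Zfp36l2 and Utrn. All 4 distal regions given to Rtp1 were gained and 3 of them were kept.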

How the data were processed

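FAIRE-seq peak lists of 4 groups, 1 list each, were analysed, with groups taken from the sample labels. Per the study's methods, Ion Proton reads were cut to 36 bp and aligned to mm10 by bowtie2, and MACS2 was run by the authors with a q-value limit of 0.0001. The MACS2 version is 2.1.0 in the submitters' processing notes and differs in the methods. The study describes biological replicates, which may have been combined before deposit. For each region the authors' caller deposited a fold enrichment, which is a ratio to local background, a -log10 p-value, a -log10 q-value and a whole-number score.

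The summit fragments, as whole numbers, and the local background were solved from the deposited fold enrichment (pseudocount 1) and Poisson p-value. The solved values gave the deposited -log10 p within 0.05 in 100% of regions. Depth was estimated from the background floor with an effective genome size of 1.87 Gb. It is an estimate, and the number of summit fragments, about 20, limits the precision of every ratio. A region of a list was given the value of the strongest overlapping region of each other list. TSSs came from the GENCODE basic set, release M21, and sequence from RefSeq GRCm38. Coordinates are mm10, counted from 1. Regions were counted with Python 3.11.15, pandas 2.3.3, scipy 1.17.1 and pysam 0.24.0. The solving of fragments, the overlaps, the selection of regions and the search for AP-1, ETS and RUNX words were tested on simulated data. No test between groups was made, since 1 list was deposited per group.

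Named regions were the 12 with the highest smallest fold enrichment over the 3 TGF-β lists, the 3 highest of each gene list, those of genes with 4 or more, and the 3 on each side of a threshold. The regions and lists were chosen with earlier results of these data known. Regions on X and Y and the mitochondrial chromosome were left out. Alternatives varied overlap, threshold, list length, TSS distance, TSS annotation, scale, motif word and window, region strength and gene assignment.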

Additional observations from a re-analysis of the deposited data

How the results depend on the processing

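The number of kept regions stayed within 1.5 times of the reported 1084 under all 8 alternatives of overlap, threshold, list length and TSS choice, from 923 to 1159. With equal list lengths the kept share of gained regions was 28.1% in place of 12.9%, the AP-1 share 62.5%, and the median log2 ratios -0.18 for set 1 and -0.48 for set 2, with 3822 in place of 8379 regions gained and 362 regions in common with the reported 1084. The fewer gained regions enter the kept share directly, and the cause of the other shifts was not tested. In fragments per M estimated reads the median ratios were -0.22 and -0.58. In 200 bp around the summit the shares with a word were 50.0% for AP-1, 14.9% for ETS and 12.5% for RUNX, and with the longer AP-1 word 21.5% and the stricter ETS word 1.11%, as the window is shorter or the word longer. With genes given by a TSS within 50 kb, the shares were 0.369% for TGF-β signalling, 0.185% for EMT factors and 0.554% for Ras-ERK and ETS genes. The share of regions at 1.5 times the untreated limit, an alternative chosen after seeing the data, was 75.1% with the lowest and 3.87% with the median untreated p. The other 61 values stayed within the 95% interval of the reported share or of the median over regions or, for counts of regions, within 1.5 times, and none changed sign. No paired analysis was possible because each group had 1 list. Leaving out a replicate was not possible for the same reason. A summit of about 20 fragments does not resolve differences of the size of the median ratios in a single region.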

Other observations

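Regions on the X chromosome were outside the selection. Of 128 distal X regions in the siControl TGF-β list 73 were gained, and 5 of these (6.85%) were called with both siRNA sets. Among kept regions, those with an AP-1 word and no ETS word had a median log2 ratio of -0.10 with set 1, with 269 of 427 (63.0%) lower than in siControl with TGF-β, and those with both words had -0.19, with 134 of 180 (74.4%) lower. With set 2 the medians were -0.30 and -0.34. Without an AP-1 word, the set 1 median was -0.18 with an ETS word, with 79 of 116 (68.1%) lower. With neither word it was -0.16, with 263 of 361 (72.9%) lower. Regions shared with the untreated list but called with neither siRNA set, 1702 in number, held the AP-1 word in 36.1% (33.9 to 38.4) and the CTCF site in 12.7%, beside 56.0% and 4.70% of the kept gained regions. No explanation of these values was tested.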
